A study of Danio rerio with 6 samples.

Results

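The genes described here act in mitosis and in the G2 phase that precedes it. The set was given as 44 gene names, chosen with earlier results of these data known. The rule that matches them to rows uses no measured value. A member is a table row with an Ensembl zebrafish ID whose symbol equals a listed name. Of the 44 names 42 were found, on 43 of the 27314 rows, because ube2c stood on 2 rows. The names bub1bba and incenp had no row with that symbol. Expression was measured in 6 libraries made by Smart-seq2, which amplifies whole cDNAs and adds no molecular identifiers, from labelled blood cells of the larval zebrafish kidney at 9 dpf, or 3.5 dpt.

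The groups were 3 MTZ libraries and 3 DMSO libraries. All larvae were Tg(coro1a:DenNTR) transgenics, whose genotype field reads WT, so the DMSO controls carry the transgene too. The leukocyte promoter of coro1a drives it, which limits the labelled cells to those that use this promoter. MTZ is a common abbreviation of metronidazole, a prodrug that nitroreductase (NTR) turns into a cell toxin. A 405-nm laser applied for 30 s turned the labelled kidney cells red, about 80 larvae were pooled, and 50 red cells went into each library. Whether a group's libraries stem from different pools of larvae is not stated, and the p-values rest on a spread between libraries that may be technical. Fewer cycling cells and less mitotic RNA per cell cannot be told apart in libraries of pooled cells.

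A cell enters mitosis when the kinase Cdk1, bound to A-type and B-type cyclins, is switched on with the help of Polo and Aurora kinases. Condensin and topoisomerase II compact the chromosomes, kinetochores attach them to spindle microtubules, and the spindle checkpoint holds back the anaphase-promoting complex until attachment is complete. Many of these genes are transcribed mainly in G2 and M, so their RNA is widely used as a readout of cells that are about to divide, including the stem and progenitor cells of the fish kidney.

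Libraries held between 14058382 and 20674280 counts, and a count of 3 was worth between 0.149 and 0.233 CPM (counts scaled to the TMM-adjusted library size). The leukocyte genes coro1a and lcp1 were abundant in every library. For coro1a, the gene of the label's promoter, the values were 1287, 2012 and 1609.8 CPM in MTZ 1 to 3. In DMSO 1 to 3 they were 2573, 2458 and 1508 CPM. The leukocyte genes laptm5 and rac2 were lowest in DMSO 3, at 651 and 1124 CPM. The leukocyte gene ptprc was uneven, with 175, 243 and 104 CPM in the MTZ libraries, against 87.7, 118 and 15.7 CPM in the DMSO libraries. Of 6 kidney tubule markers none had over 3 counts in MTZ libraries, and 1 had over 3 counts in 1 DMSO library. Marker RNA of blood cell types differed between libraries of the same group, in both groups. Whether the mix of cells or the RNA per cell differed was not tested. The 6 neutrophil marker rows summed to 12813, 131 and 390.2 CPM in MTZ and to 4404, 144 and 4050.4 CPM in DMSO. Skeletal muscle markers, 9 of 10 rows with over 3 counts, reached a sum of 8835 CPM in DMSO 1 and stayed at or under 26.1 CPM in the others. Exocrine pancreas markers, 7 of 8 rows with over 3 counts, reached 647 CPM in MTZ 3 and stayed at or under 13.6 CPM in the others.

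The mitosis genes were expressed in both groups and none of them passed the test between MTZ and DMSO. Their levels added up to 2283, 4819 and 1542 CPM in MTZ 1, MTZ 2 and MTZ 3, against 1802, 3289 and 3253 CPM in DMSO 1, DMSO 2 and DMSO 3. The MTZ mean was 2881 ± 1718 CPM and the DMSO mean 2782 ± 848 CPM (SD, n = 3 each), a ratio of 1.04. The sums overlapped fully, since the MTZ libraries held both the highest and the lowest of the 6. The highest sum was 3.13 times the lowest, and that range lay between 2 libraries of the same group.

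With edgeR's quasi-likelihood test, 0 of 41 tested member rows passed an adjusted p of 0.05, where 0% of 10283 genes tested did. Every tested member had an edgeR adjusted p of 0.9997. The 2 rows left out of the test for low counts were aurka and the ube2c row without a count in any library. At an unadjusted p under 0.05 there was 1 member, ncapg, against 3.18% of genes tested. DESeq2 called 0 members and 1.33% of the 9778 genes to which it gave an adjusted p. It gave none to the members kif23, kif20a, prc1a and smc2. With all rows that had a count tested, edgeR called 0 members and 0.29% of genes. Of the 41 members 24 had a positive log2 fold change (MTZ over DMSO) and 17 a negative one, where 50.9% of genes tested were positive. The groups did not overlap in 2 members, beside 10.8% of genes tested, and 18 members had a log2 fold change over 1 in size, beside 36.4%. The median was 0.16, beside 0.02 over all genes tested. The sign of this median changed when MTZ 2 was left out, to -0.61 with 12 positive and 29 negative members, and when DMSO 1 was left out, to -0.07 with 21 of each sign among 42 members then tested.

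**Figure D1:**
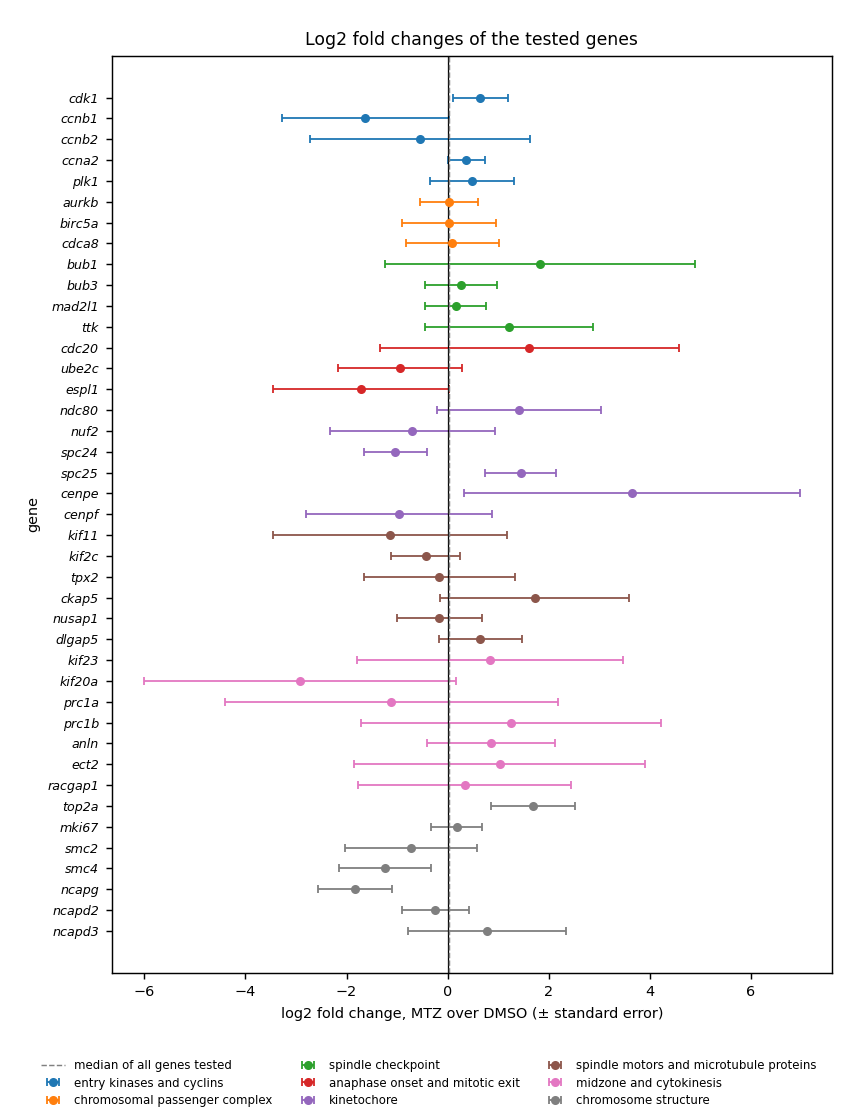
Log2 fold change of each tested gene, MTZ over DMSO, on the x axis with its standard error, in the order of the genes' roles (colours). The dashed line is the median of all genes tested (0.02). The estimates lie on both sides of 0, and 7 of 41 are larger in size than their standard error.

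Spread inside a group was wide. In 22 of 41 members (53.7%) the highest library of a group was over 10 times the lowest of that group, in at least 1 group, beside 59.4% of genes tested. The median coefficient of variation of a member was 88.4% in MTZ and 71.9% in DMSO, beside 78.1% in MTZ and 81.3% in DMSO over all genes tested. There were 23 members (56.1%) with over 3 counts in all 6 libraries, beside 51.9% of genes tested. A library had 3 counts or fewer for 4, 3 and 8 of 41 members in MTZ 1, MTZ 2 and MTZ 3 (9.76%, 7.32% and 19.5%, beside 14.8%, 19.4% and 9.83% of genes tested). In DMSO 1, DMSO 2 and DMSO 3 the counts were 8, 4 and 3 of 41 (19.5%, 9.76% and 7.32%, beside 16.2%, 15.8% and 15.7%). Members were low more often than genes overall in MTZ 3 and DMSO 1, and less often in the other 4 libraries.

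**Figure D2:**
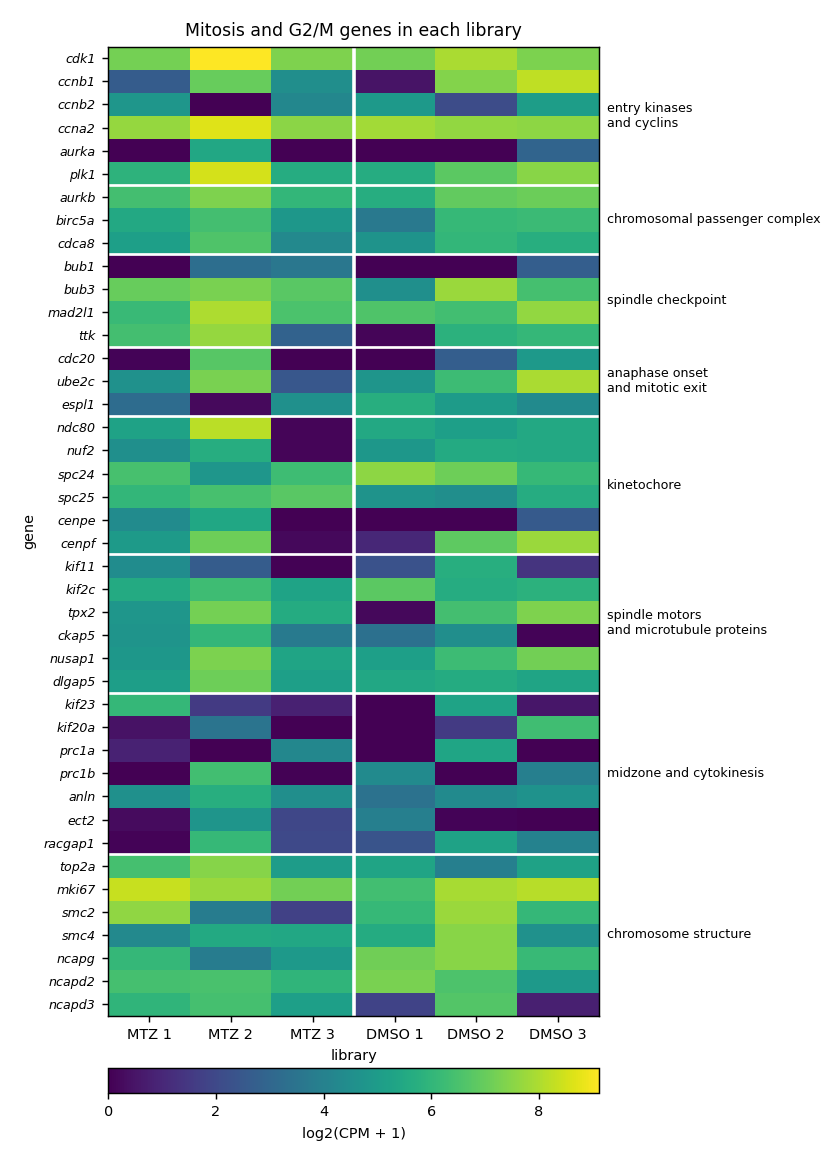
Level of the 42 member rows with counts (rows, by role) in the 3 MTZ and 3 DMSO libraries (columns), as log2(CPM + 1). The column of MTZ 2 is bright for most genes from cdk1 to racgap1, and those of MTZ 3 and DMSO 1 have many dark cells. The condensin genes at the bottom do not share an order of libraries.

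The kinase gene cdk1 (ENSDARG00000087554), the catalytic core of mitotic entry, had 147, 554 and 165 CPM in the MTZ libraries, against 144, 247 and 160.0 CPM in the DMSO libraries. MTZ 2 stood well above the other 5 libraries, which overlapped. Its log2 fold change was 0.65 ± 0.54, and without MTZ 2 it was -0.23. Cyclin A2, which partners Cdk kinases in S phase and G2, was similar: ccna2 (ENSDARG00000011094) had 204, 407 and 184 CPM in the MTZ libraries, against 229, 197 and 189 CPM in the DMSO libraries, with a log2 fold change of 0.37 ± 0.37. Apart from MTZ 2, ccna2 was even across libraries. For ccna2 too the sign turned without MTZ 2, to -0.07.

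The B-type cyclins, the main mitotic partners of Cdk1, followed other orders. In MTZ ccnb1 (ENSDARG00000051923) had 5.24, 127 and 21.8 CPM, against 0.389, 170.0 and 305 CPM in the DMSO libraries (log2 fold change -1.63 ± 1.65). It was nearly absent from DMSO 1, with 5 counts, and highest in DMSO 3, so the DMSO libraries enclosed the MTZ ones. Its paralog ccnb2 (ENSDARG00000036180) had 26.7, 0 and 17.8 CPM in the MTZ libraries, against 28.7, 3.39 and 32.9 CPM in the DMSO libraries. The library highest for cdk1, MTZ 2, had no ccnb2 count. The log2 fold change of ccnb2 was -0.55 ± 2.18.

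Polo-like kinase 1 drives mitotic entry and centrosome maturation. Its gene plk1 (ENSDARG00000058471) had 58.1, 372 and 48.8 CPM in the MTZ libraries, against 48.7, 112 and 181 CPM in the DMSO libraries (log2 fold change 0.48 ± 0.84, or -1.09 without MTZ 2). Again MTZ 2 was highest, and DMSO 3 and DMSO 2 came next. The Aurora A gene aurka (ENSDARG00000012485), which acts at spindle poles, was seen in MTZ 2 at 42.8 CPM and in DMSO 3 at 6.64 CPM and had no count in the other 4 libraries, so it was not tested.

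The chromosomal passenger complex corrects faulty attachments and later acts at the cleavage site. It combines the kinase Aurora B with survivin, borealin and the inner centromere protein. The 3 found members had nearly the same order of libraries and almost equal means in both groups. The kinase gene aurkb (ENSDARG00000037640) had 83.5, 161 and 64.6 CPM in the MTZ libraries, against 50.5, 120.1 and 132 CPM in the DMSO libraries (log2 fold change 0.03 ± 0.57). The survivin gene birc5a (ENSDARG00000075621) had 44.5, 83.8 and 27.3 CPM in the MTZ libraries, against 11.8, 67.2 and 73.6 CPM in the DMSO libraries (log2 fold change 0.03 ± 0.93). The borealin gene cdca8 (ENSDARG00000043137) had 34.7, 96.3 and 18.6 CPM in the MTZ libraries, against 25.0, 64.1 and 51.0 CPM in the DMSO libraries (log2 fold change 0.09 ± 0.92). In each of these 3 genes MTZ 2 was the highest library, and in each DMSO 1 was the lowest of its group. Summed, they reached 163, 341 and 110.4 CPM in the MTZ libraries, against 87.3, 251 and 257 CPM in DMSO. Under library size alone, without scaling factors, aurkb and birc5a turned to -0.03 and -0.05.

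The row described in the table as inner centromere protein carries a clone name (ENSDARG00000099194) and lies outside the rule. It had 19.3, 23.6 and 7.65 CPM in the MTZ libraries, against 8.86, 78.3 and 27.9 CPM in the DMSO libraries, a log2 fold change of -1.19 ± 1.33. DMSO 2, not MTZ 2, was its highest library.

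The spindle checkpoint genes had positive log2 fold changes in 4 of 4 tested rows, where 50.9% of genes tested did, and the libraries overlapped in each. This did not hold for mad2l1 without MTZ 2 (-0.61), without DMSO 2 (-0.07) or with limma voom (-0.00767), nor for bub3 without DMSO 1 (-0.21). The kinase gene ttk (Mps1, which starts checkpoint signalling, ENSDARG00000041361) had 82.5, 201 and 6.31 CPM in the MTZ libraries, against 0.0778, 57.4 and 66.8 CPM in the DMSO libraries (log2 fold change 1.22 ± 1.66). It was close to absent in DMSO 1, at 1 count, and low in MTZ 3. The gene mad2l1 (ENSDARG00000004713), whose product binds and holds Cdc20, had 71.9, 256 and 91.1 CPM in the MTZ libraries, against 95.6, 80.8 and 199 CPM in the DMSO libraries (log2 fold change 0.16 ± 0.60). Its high libraries were MTZ 2 and DMSO 3. The scaffold gene bub3 had means of 130.1 CPM in MTZ, against 108 CPM in DMSO (log2 fold change 0.27 ± 0.72), with DMSO 2 highest and DMSO 1 lowest.

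The checkpoint kinase gene bub1 (ENSDARG00000077029) was sparse. It had 0, 8.79 and 11.1 CPM in the MTZ libraries, against 0, 0 and 5.59 CPM in the DMSO libraries, so 3 of 6 libraries had no count (log2 fold change 1.83 ± 3.07). The name bub1bba was not found, but the table held a pair of BUB1B-type rows outside the rule, bub1ba and bub1bb. They had 0, 30.4 and 21.8 CPM in the MTZ libraries, against 0, 10.3 and 0.0658 CPM in the DMSO libraries for bub1ba, and 27.7, 0 and 19.9 CPM in the MTZ libraries, against 0.544, 10.2 and 40.0 CPM in the DMSO libraries for bub1bb. In MTZ 2 bub1ba was present and bub1bb had no count, while in MTZ 1 this was the other way round.

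Anaphase starts when Cdc20 activates the anaphase-promoting complex, Ube2c supplies it with ubiquitin and separase, encoded by espl1, cuts cohesin. The activator gene cdc20 (ENSDARG00000100741) had 0.0540, 106 and 0 CPM in the MTZ libraries, against 0, 5.61 and 28.9 CPM in the DMSO libraries. MTZ 2, DMSO 3 and DMSO 2 held it, and the other 3 libraries had at most 1 count. Its log2 fold change was 1.62 ± 2.96, and MTZ 2 held all but 1 of the counts in the MTZ group. The row of ube2c with counts (ENSDARG00000114670) had 23.2, 154 and 4.52 CPM in the MTZ libraries, against 25.7, 75.8 and 248 CPM in the DMSO libraries (log2 fold change -0.94 ± 1.22). Here too MTZ 2, DMSO 3 and DMSO 2 were the high libraries. The other row that carries the ube2c name had no count in any library, so the counting assigned no reads to it.

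The separase gene espl1 (ENSDARG00000075354) followed another order of libraries. It had 8.26, 0.186 and 22.7 CPM in the MTZ libraries, against 51.2, 31.4 and 19.7 CPM in the DMSO libraries (log2 fold change -1.71 ± 1.74). MTZ 2 was its lowest library, at 3 counts, and DMSO 1 its highest.

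**Figure D3:**
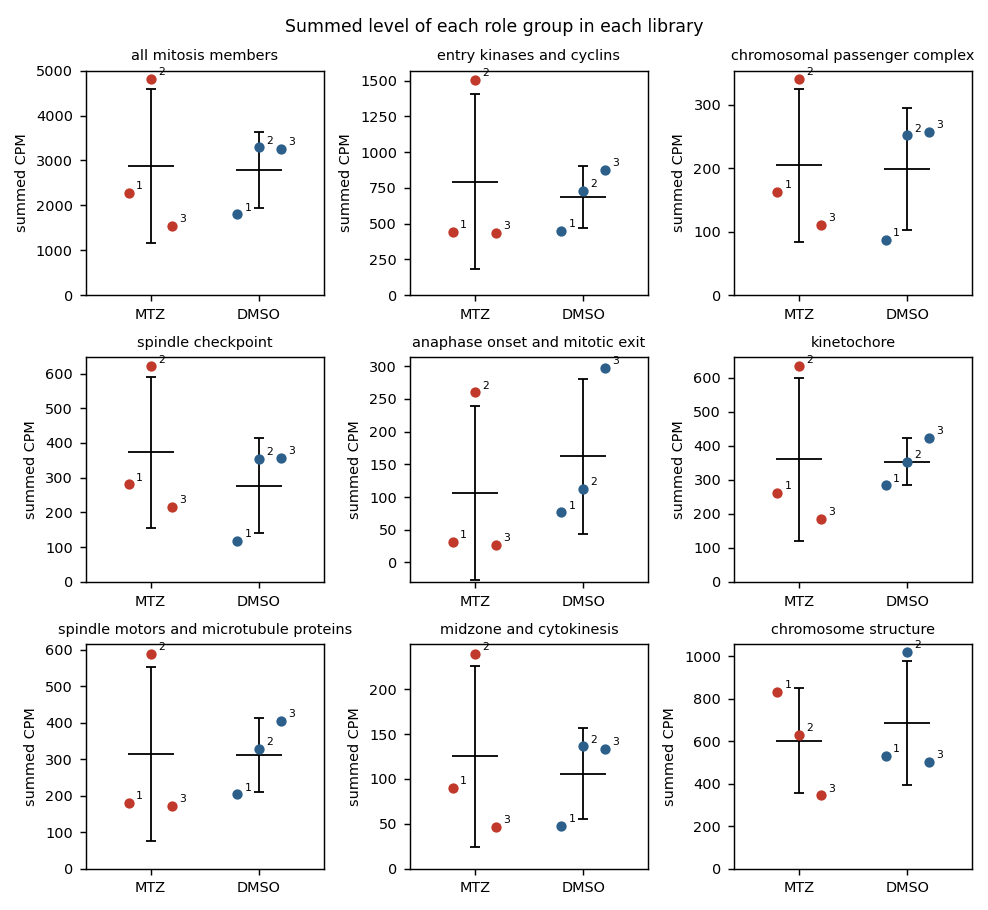
Summed CPM of all mitosis members and of each role group, by group on the x axis. Points are libraries (numbered), bars the mean with the SD of 3 libraries. MTZ 2 is the highest library in the total and in 6 of the 8 role groups, DMSO 3 in the group for anaphase onset and exit, and DMSO 2 in the group for chromosome structure.

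Kinetochore genes were split. The 4 subunits of the Ndc80 complex, the main microtubule binder of the kinetochore, did not share an order of libraries although they act as a unit. The gene spc25 (ENSDARG00000078433) had 64.6, 86.9 and 109 CPM in the MTZ libraries, against 24.5, 21.8 and 48.9 CPM in the DMSO libraries (log2 fold change 1.45 ± 0.70, edgeR unadjusted p = 0.0713). Its MTZ libraries did not overlap the DMSO ones. This was 1 member of 41 fully higher in MTZ, beside 5.58% of genes tested. Leaving out single libraries gave log2 fold changes between 1.25 and 1.91.

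Its direct partner spc24 (ENSDARG00000093622) had 88.2, 26.9 and 76.4 CPM in the MTZ libraries, against 188, 136 and 68.2 CPM in the DMSO libraries (log2 fold change -1.03 ± 0.62). MTZ 2 was the lowest library and DMSO 1 the highest, and the groups overlapped through DMSO 3. The other two subunits, ndc80 (ENSDARG00000071694) and nuf2 (ENSDARG00000034624), were nearly absent from MTZ 3, with 2 counts each. There ndc80 had 37.0, 291 and 0.0993 CPM in the MTZ libraries, against 43.9, 34.5 and 44.1 CPM in the DMSO libraries (log2 fold change 1.42 ± 1.62). The gene nuf2 had 22.2, 50.7 and 0.0993 CPM in the MTZ libraries, against 27.4, 46.4 and 44.5 CPM in the DMSO libraries (log2 fold change -0.69 ± 1.63). Both varied less across the DMSO libraries than across the MTZ libraries, and the sign of ndc80 turned without MTZ 2, to -1.14.

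The gene cenpe (ENSDARG00000063385) encodes a kinesin that carries chromosomes to the spindle equator. It had 20.2, 41.6 and 0 CPM in the MTZ libraries, against 0, 0 and 4.93 CPM in the DMSO libraries, so 3 libraries had no count (log2 fold change 3.64 ± 3.32). The large kinetochore protein gene cenpf (ENSDARG00000055133) had 30.2, 138 and 0.149 CPM in the MTZ libraries, against 1.01, 114 and 212 CPM in the DMSO libraries (log2 fold change -0.96 ± 1.84). Its low libraries were MTZ 3 and DMSO 1, with 3 and 13 counts.

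Among the spindle motors and microtubule proteins 2 members had positive and 4 negative log2 fold changes. The kinesin-5 gene kif11 (ENSDARG00000010948), which pushes spindle poles apart, had 20.5, 5.32 and 0.0497 CPM in the MTZ libraries, against 3.97, 51.3 and 1.58 CPM in the DMSO libraries (log2 fold change -1.14 ± 2.32). DMSO 2 held most of it in its group and MTZ 1 in the other. The spindle assembly factor gene tpx2 (ENSDARG00000078654) had 27.0, 147 and 48.2 CPM in the MTZ libraries, against 0.156, 83.8 and 164 CPM in the DMSO libraries (log2 fold change -0.16 ± 1.498). As with ccnb1, tpx2 was near 0 in DMSO 1, at 2 counts, and highest in DMSO 3.

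The microtubule bundling gene nusap1 had means of 75.2 ± 72.8 CPM in MTZ, against 84.1 ± 55.4 CPM in DMSO (SD, n = 3 each). The spindle protein gene dlgap5 had 68.0 ± 59.08 CPM in MTZ, against 43.4 ± 4.58 CPM in DMSO, with MTZ 2 at 136 CPM. The microtubule depolymerase gene kif2c had 53.8 ± 20.6 CPM in MTZ, against 72.8 ± 34.8 CPM in DMSO and was present in every library. The microtubule polymerase gene ckap5 was also higher on average in MTZ, with 34.2 ± 27.3 CPM in MTZ, against 10.4 ± 10.9 CPM in DMSO, and had 1 count in DMSO 3.

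Several genes of the spindle midzone and cytokinesis had libraries with hardly a count. The centralspindlin motor gene kif23 (ENSDARG00000014943) had 65.8, 1.92 and 0.794 CPM in the MTZ libraries, against 0, 37.8 and 0.460 CPM in the DMSO libraries (log2 fold change 0.84 ± 2.63). It was seen above 2 CPM in MTZ 1 and DMSO 2 alone. Its complex partner racgap1, a GTPase-activating protein, had 0.0540, 68.1 and 3.03 CPM in the MTZ libraries, against 4.12, 36.7 and 15.6 CPM in the DMSO libraries, and was highest in MTZ 2 and DMSO 2. MTZ 1, where kif23 was highest, had 1 count of racgap1.

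The midzone crosslinker genes prc1a and prc1b are paralogs, and each was patchy. The copy prc1a (ENSDARG00000100918) had 0.810, 0 and 17.8 CPM in the MTZ libraries, against 0, 40.3 and 0 CPM in the DMSO libraries (log2 fold change -1.11 ± 3.29). Its paralog prc1b (ENSDARG00000005993) had 0, 81.0 and 0.0497 CPM in the MTZ libraries, against 19.4, 0 and 14.5 CPM in the DMSO libraries (log2 fold change 1.26 ± 2.97). No library had both copies above 1 CPM: prc1a was above it in MTZ 3 and DMSO 2, and prc1b in MTZ 2, DMSO 1 and DMSO 3. How the counting assigned the reads of close paralogs was not tested.

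Anillin, which organises the contractile ring, was present in every library. The gene anln (ENSDARG00000060917) had 22.7, 51.6 and 21.8 CPM in the MTZ libraries, against 9.80, 19.6 and 23.8 CPM in the DMSO libraries (log2 fold change 0.85 ± 1.27). The cytokinesis gene ect2 had 0.216, 26.2 and 2.88 CPM in the MTZ libraries, against 14.3, 0.0585 and 0 CPM in the DMSO libraries, and the midzone kinesin gene kif20a had 0.378, 10.3 and 0 CPM in the MTZ libraries, against 0, 1.93 and 79.3 CPM in the DMSO libraries. The peak of ect2 was in MTZ 2 and that of kif20a in DMSO 3.

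The genes of chromosome structure held the member of smallest p. Condensin shapes mitotic chromosomes and joins the ATPases Smc2 and Smc4 to further subunits. The condensin I gene ncapg (ENSDARG00000070109) had 66.3, 13.4 and 29.1 CPM in the MTZ libraries, against 139, 180.1 and 69.1 CPM in the DMSO libraries. The MTZ libraries lay below the DMSO libraries without overlap, by a narrow gap between MTZ 1 and DMSO 3. This was 1 member of 41 fully lower in MTZ, beside 5.17% of genes tested. Its log2 fold change was -1.84 ± 0.73 (edgeR unadjusted p = 0.0348, adjusted p = 0.9997), and leaving out single libraries gave values between -2.60 and -1.43. The DESeq2 adjusted p of ncapg was 0.56.

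The other condensin genes overlapped between groups. The ATPase gene smc2 (ENSDARG00000017744) had 194, 13.1 and 2.43 CPM in the MTZ libraries, against 68.5, 212 and 66.7 CPM in the DMSO libraries (log2 fold change -0.73 ± 1.30). Its partner smc4 (ENSDARG00000038882) had 18.4, 45.3 and 43.1 CPM in the MTZ libraries, against 48.0, 181 and 23.3 CPM in the DMSO libraries (log2 fold change -1.24 ± 0.92). DMSO 2 was the highest library of both, and without it their log2 fold changes were 0.05 for smc2 and 0.01 for smc4. The condensin I gene ncapd2 had means of 78.4 ± 14.9 CPM in MTZ, against 92.8 ± 63.1 CPM in DMSO. The condensin II gene ncapd3 had 59.99 ± 25.1 CPM in MTZ, against 34.9 ± 57.6 CPM in DMSO, where DMSO 2 had 101 CPM. In total DMSO 2 was the highest library for 4 of the 5 condensin genes, beside 16.2% of genes tested.

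Topoisomerase II alpha, which untangles sister DNA, had the second smallest p among the higher members. Its gene top2a (ENSDARG00000024488) had 84.5, 175 and 32.0 CPM in the MTZ libraries, against 38.8, 14.2 and 37.0 CPM in the DMSO libraries (log2 fold change 1.69 ± 0.83, edgeR unadjusted p = 0.0752). MTZ 1 and MTZ 2 lay above the DMSO libraries, and MTZ 3 lay among them. Leaving out single libraries gave values between 0.96 and 2.12. The proliferation marker gene mki67 (ENSDARG00000091150), whose product coats mitotic chromosomes, had 325, 211 and 144 CPM in the MTZ libraries, against 80.3, 241 and 279 CPM in the DMSO libraries (log2 fold change 0.18 ± 0.51). It was high in both groups, lowest in DMSO 1 and, unlike cdk1 or plk1, highest in MTZ 1. Without DMSO 1 or MTZ 1 its sign turned, to -0.19 or -0.16.

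The highest level of a member fell most often in MTZ 2, and the other members had their highest level in all of the other 5 libraries. MTZ 2 was the highest of the 6 libraries for 20 of 41 members (48.8%), where it was the highest for 19.3% of genes tested. MTZ 1 and MTZ 3 were highest for 2 members each, and DMSO 1, DMSO 2 and DMSO 3 for 4, 7 and 6. Within the MTZ group alone, MTZ 2 was highest for 30 of 41 members (73.2%), beside 34.7% of genes tested, and MTZ 3 was lowest for 24 (58.5%), beside 27.6%. In the DMSO group DMSO 1 was lowest for 19 members (46.3%), beside 31.4%, leaving out 3 members tied at the lowest value. These shares describe 6 libraries and were not tested. The median of a member across the 41 was 33.2, 84.2 and 21.8 CPM in MTZ 1 to 3 and 25.0, 57.4 and 48.9 CPM in DMSO 1 to 3, while the median of all genes tested stayed between 24.5 and 27.4 CPM.

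Neutrophil markers were low in MTZ 2 and DMSO 2 (131 and 144 CPM), which had the 2 highest mitosis sums, and high in MTZ 1 (12813 CPM) and DMSO 1 (4404 CPM). MTZ 3 and DMSO 3 went against this order, with 390.2 CPM of neutrophil markers beside the lowest mitosis sum and 4050.4 CPM beside a high one. In MTZ 1 and DMSO 1 most of the neutrophil sum was lyz, at 9301 and 3453 CPM. The rows mpx, npsn and cpa5 were also lower in MTZ 2 and DMSO 2 than in MTZ 1 and DMSO 1. The row mmp9 went the other way, with no count in MTZ 1 and DMSO 1 and 8.91 and 26.7 CPM in MTZ 2 and DMSO 2. In DMSO 1 nccrp1 had 69.9 CPM, against 112 CPM in DMSO 2, but in MTZ 1 it had 774 CPM, against 99.2 CPM in MTZ 2. All neutrophil rows but mmp9 had counts in every library. The 6 macrophage rows summed to 391.9, 15.8 and 656 CPM in the MTZ libraries, against 760.2, 154 and 373 CPM in the DMSO libraries. From the lowest up the macrophage sums ran MTZ 2, DMSO 2, DMSO 3, MTZ 1, MTZ 3 and DMSO 1, and the mitosis sums from the highest down ran alike but for the last pair, DMSO 1 and MTZ 3. The macrophage genes marco, csf1ra and c1qa had no count in MTZ 2, and marco and c1qa none in DMSO 2. But marco had no count in MTZ 1 and DMSO 3 either, and c1qa had 2 counts in DMSO 1, which had the highest macrophage sum. The macrophage gene c1qb had 102, 15.2 and 276 CPM in the MTZ libraries, against 30.7, 0.175 and 39.1 CPM in the DMSO libraries. It was thus lower in DMSO 1 than in MTZ 1 and DMSO 3, against the order of the sums. The macrophage gene mpeg1.1 had 143, 0.433 and 135 CPM in the MTZ libraries, against 569, 121 and 238 CPM in the DMSO libraries. Its level in DMSO 2 was thus near those of MTZ 1 and MTZ 3.

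The 8 stem and progenitor rows summed to 1350.3, 1413 and 1099 CPM in the MTZ libraries, against 1214, 233 and 703 CPM in the DMSO libraries. MTZ 2 was highest here too, but DMSO 2, with the second highest mitosis sum, was lowest. Of the MTZ 2 sum fli1a gave 668 CPM, and among the 8 rows only fli1a and gfi1aa were highest in MTZ 2. The gene myb had 465, 227 and 272 CPM in the MTZ libraries, against 491, 95.4 and 285 CPM in the DMSO libraries. The 11 T cell rows summed to 180, 865 and 781 CPM in the MTZ libraries, against 1108, 1379 and 1176 CPM in the DMSO libraries, and cd4-1 and cd8a had no count in any library. These T cell sums were lower in all MTZ libraries than in all DMSO libraries, while the mitosis sums of the groups overlapped. In these sums il7r gave 572 CPM in DMSO 1 and rag1 390 CPM in DMSO 3. Of the 9 T cell rows tested 0 passed the adjusted p of 0.05. A negative log2 fold change was seen in 8 of them, where 50.9% of genes tested had a positive one. The gene cd28 went the other way, with 36.1, 82.0 and 61.5 CPM in the MTZ libraries, against 16.3, 21.6 and 8.35 CPM in DMSO. Without overlap of the groups, 2 of the 9 rows lay lower in MTZ, beside 5.17% of genes tested. In the other direction 1 row, cd28, lay higher without overlap, beside 5.58%. Among the 8 negative rows, zap70, cd247l and il7r had close means. They were 43.6, 50.2 and 299 CPM in MTZ, against 45.1, 51.1 and 332 CPM in DMSO. Erythroid rows summed to at most 54.5 CPM and skin rows to at most 193 CPM in any library. Muscle RNA was high in DMSO 1 and pancreas RNA in MTZ 3, the libraries with the 2 lowest mitosis sums. The part of any of these cells in the mitosis levels was not tested. Leaving out DMSO 1 gave a log2 ratio of the summed mitosis level of -0.18, leaving out MTZ 3 one of 0.36, and leaving out MTZ 2 one of -0.54, beside 0.05 with all libraries.

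**Figure D4:**
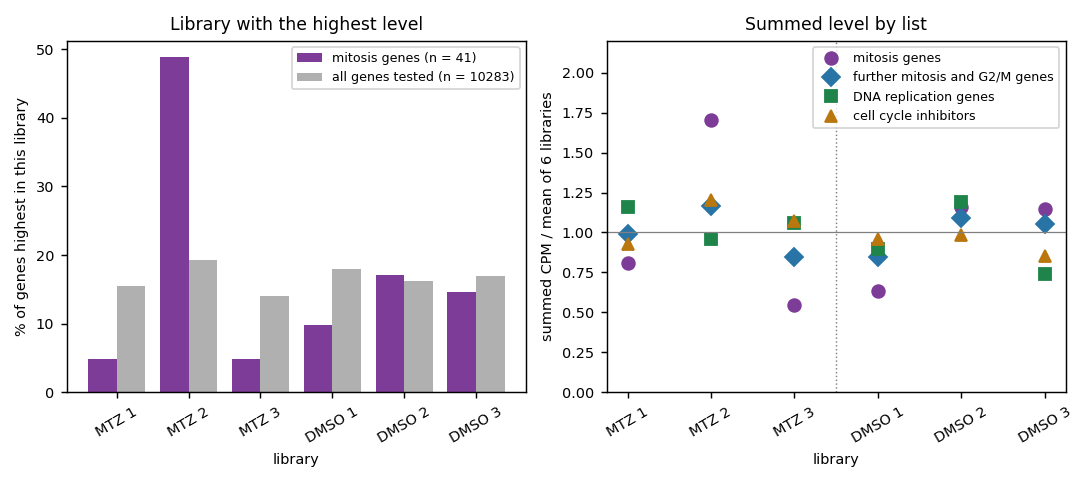
Left, percent of the 41 tested mitosis genes and of all 10283 genes tested whose highest level falls in each library. Right, summed CPM of 4 gene lists in each library, divided by the list's mean over 6 libraries. MTZ 2 holds the highest level of 48.8% of the mitosis genes. The mitosis sum varies 3.13-fold between libraries, that of DNA replication genes 1.61-fold and that of cell cycle inhibitors 1.42-fold. That of further mitosis and G2/M genes varies 1.38-fold, or 1.55-fold without tubb4b, stmn1a, hmgb2a and hmgb2b. Abundant genes weigh most in such sums, so the folds of these lists are not like measures.

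Other genes of the same process gave no call either. Of 78 further mitosis and G2/M names 71 were found and 65 tested, 30 with positive and 35 with negative log2 fold changes (median -0.07), and 0 passed. The higher genes of smallest p were foxm1, anapc1 and mis12. The gene foxm1, for a transcription factor that switches on G2/M genes, had 0.0540, 48.1 and 20.5 CPM in the MTZ libraries, against 0.933, 1.75 and 2.43 CPM in the DMSO libraries (log2 fold change 3.74 ± 2.42). It was above 3 CPM in MTZ 2 and MTZ 3 alone, so the MTZ library lowest for mitosis genes had it and MTZ 1 did not. The gene anapc1, a large subunit of the anaphase-promoting complex, averaged 43.6 ± 29.3 CPM in MTZ, against 13.1 ± 5.66 CPM in DMSO, and the kinetochore gene mis12 averaged 87.9 ± 22.8 CPM in MTZ, against 46.6 ± 24.1 CPM in DMSO.

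The lower genes of smallest p were the centromere gene cenpk, the cohesin acetyltransferase gene esco2 and g2e3. They averaged 30.6 ± 16.1, 66.1 ± 25.2 and 0.324 ± 0.561 CPM in MTZ, against 71.9 ± 25.3, 119 ± 51.3 and 9.22 ± 10.9 CPM in DMSO. This list summed to 9929, 11720.3 and 8501 CPM in the MTZ libraries, against 8522, 10950.4 and 10577 CPM in DMSO. Between 66.7% and 75.3% of that came from tubb4b, stmn1a, hmgb2a and hmgb2b. Without these 4 genes the highest library was 1.55 times the lowest, and it was DMSO 2 at 3650 CPM, with MTZ 2 next at 3452 CPM.

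DNA replication and S phase genes, which act in the preceding phase, varied 1.61-fold between libraries as a sum. The mitosis members varied 3.13-fold and the further mitosis and G2/M genes 1.38-fold, or 1.55-fold without their 4 abundant genes. Abundant genes weigh most in such sums, such as pcna with 1170 to 2034 CPM in the replication list. All 39 rows found were tested, 20 positive and 19 negative (median log2 fold change 0.02), and 0 passed. They summed to 11324, 9353 and 10348 CPM in the MTZ libraries, against 8750.3, 11667 and 7232 CPM in DMSO. The highest of these sums was DMSO 2 and the lowest DMSO 3, although both had like mitosis sums. MTZ 2, the highest for mitosis, was in the middle. The higher genes of smallest p were mcm3, mcm4 and mcm6, subunits of the replicative helicase. They averaged 539 ± 175, 474 ± 66.7 and 415 ± 198 CPM in MTZ, against 315 ± 27.6, 301 ± 40.4 and 209.8 ± 53.3 CPM in DMSO, with no overlap of the groups for each. Their edgeR unadjusted p-values were 0.0269, 0.0295 and 0.0339 (adjusted p = 0.9997 for each). Of the 39 rows 4, these and rfc2, lay higher in MTZ without overlap, beside 5.58% of genes tested, and 4 had an unadjusted p under 0.05, beside 3.18%. Of the helicase genes mcm2 to mcm7, 5 had positive log2 fold changes and mcm7 one of -0.57. The lower genes of smallest p were tyms, lig1 and cdc45, with 84.3 ± 19.9, 59.8 ± 5.24 and 81.8 ± 44.3 CPM in MTZ, against 159.9 ± 70.4, 118 ± 67.9 and 130.2 ± 37.9 CPM in DMSO.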

How the data were processed

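The values the authors deposited are estimated counts by gene in 1 table, with no scaling to a common total. This unit was taken from the values: 8.31% to 9.90% of those above 0 were not whole, compared exactly and with no tolerance. The submitters' processing notes name HISAT2 and GRCz11. Versions, counting tool, annotation and strandedness were not given in the sources used here. Symbols came from the table. Overlapping genes and close paralogs are uncertain, since their reads may have been shared or divided.

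Estimated counts were rounded, and all 27314 rows entered the library totals. MTZ was compared with DMSO with edgeR 4.0.16 (R 4.3.3) and its two-sided quasi-likelihood test, with TMM factors, a minimum count of 10 and the group as the only term, with Benjamini-Hochberg adjustment over the 10283 genes tested and a threshold of 0.05. The standard error of a log2 fold change is its size over the root of the test's F. CPM use the TMM-scaled library size, and means carry the SD over 3 libraries. Levels are not per gene length and are not compared between genes. The worth of 3 counts reflects counting error alone, as reads that carry no molecular identifier do not stand for separate molecules.

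The members and lists were chosen with earlier results of these data known. All members are accounted for; the values in every library are given for members fixed by role and for the 4 of smallest p in each direction, and of other lists the 3 of smallest p in each direction are named. Other members and the BUB1B and inner centromere protein rows were chosen for display after their values were seen. From the T cell marker list cd3eap was dropped as no T cell gene, after the data were seen. The alternatives were DESeq2 1.42.0, limma 3.58.1 voom, other scaling factors, other filters, the replicate number as a block, and leaving out each library.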

Additional observations from a re-analysis of the deposited data

How the results depend on the processing

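No member was called in the reported test or under any of the 13 alternatives. DESeq2 gave kif23, kif20a, prc1a and smc2 no adjusted p. Over all genes, 0 calls became 130 with DESeq2 and 52 without a filter on low counts, and stayed 0 under the other 11. The cause was not tested. The median log2 fold change of the tested members was 0.14 with DESeq2 and with RLE factors, -0.08 with limma voom, 0.11 with library size alone, 0.18 without a filter, 0.08 with a filter of 10 CPM in 3 libraries (33 members), and between -0.61 and 0.43 when single libraries were left out. The log2 ratio of summed levels lay between -0.54 and 0.36 when single libraries were left out. It was 0.04 with RLE factors, -0.00278 with library size alone, -0.06 with geometric means and 0.15 with each member scaled to its own mean.

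Signs of uncalled members changed often. With limma voom the log2 fold changes of the other sign were -0.14 for plk1, -0.0752 for aurkb, -0.33 for cdca8, -0.00767 for mad2l1, -1.68 for cdc20, -2.27 for ndc80, 1.53 for tpx2, 1.07 for prc1a, -1.83 for prc1b, -2.59 for racgap1 and 0.0682 for ncapd2. With library size alone they were -0.033 for aurkb and -0.0451 for birc5a. DESeq2, RLE factors and both filters changed no sign among the members they tested. When single libraries were left out, the members that changed sign had ranges of -1.13 to 0.81 for tpx2, -1.33 to 0.46 for nusap1, -3.22 to 6.58 for kif23, -0.19 to 0.50 for mki67, -0.23 to 0.98 for cdk1, -1.27 to 0.0473 for ccnb2, -0.0732 to 0.58 for ccna2, -1.09 to 0.98 for plk1, -0.44 to 0.28 for aurkb, -0.50 to 0.39 for birc5a, -0.80 to 0.49 for cdca8, -0.61 to 0.66 for mad2l1, -8.39 to 3.64 for cdc20, -1.14 to 2.01 for ndc80, -0.35 to 0.99 for dlgap5, -8.43 to 1.91 for prc1b, -1.60 to 8.05 for ect2, -3.59 to 1.28 for racgap1, -0.21 to 1.27 for bub3, -0.78 to 0.0356 for kif2c, -0.67 to 0.36 for ncapd2, -2.81 to 1.64 for kif11, -5.02 to 9.69 for prc1a, -3.88 to 0.0508 for smc2, -1.69 to 0.00612 for smc4, -3.07 to 0.25 for ube2c and -7.11 to 1.87 for kif20a. Leaving out MTZ 2 turned 14 members, MTZ 1 4 and MTZ 3 2, and leaving out DMSO 1 turned 8, DMSO 2 5 and DMSO 3 4.

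The titles number the libraries of both groups alike, without saying that a number is shared. Deviations from the group means correlated at -0.00794, -0.000827 and -0.0459 for the same-numbered libraries 1, 2 and 3. No pairing was seen, but with the wide spread inside a group these values cannot tell whether a number is shared. With the replicate number as a block, 0 genes and 0 members were called, the median member was at 0.06, and the log2 fold changes of the other sign were -0.11 for cdca8, -0.63 for ndc80, 0.0593 for cenpf, 1.29 for tpx2, 1.47 for kif20a, 5.85 for prc1a, -7.07 for prc1b, -2.38 for racgap1 and 0.037 for ncapd2. For sparse members some library values rest on 3 counts or fewer. Others of the same group can be far higher, as for prc1b with 0, 1309 and 1 counts in MTZ 1 to 3. The cause of this sparseness was not tested.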

Other observations

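Genes listed as cell cycle inhibitors gave no call. Of 18 names 17 were found and 12 tested, 7 with positive and 5 with negative log2 fold changes (median 0.20), and 0 passed. Their levels added up to 1209.5, 1573 and 1399 CPM in MTZ 1 to 3 and to 1251, 1283 and 1109 CPM in DMSO 1 to 3. MTZ 2, the library with the highest mitosis sum, also had the highest sum here, but btg1 alone gave 871 CPM of it. In the other libraries btg1 had between 250 and 494 CPM, so this order rests on btg1. The higher genes of smallest p were btg1, an antiproliferative gene, with 588 ± 249 CPM in MTZ and 378 ± 111 CPM in DMSO, the retinoblastoma gene rb1, with 109 ± 23.7 CPM in MTZ and 37.2 ± 31.8 CPM in DMSO, and its relative rbl2, with 10.4 ± 16.5 CPM in MTZ and 2.99 ± 3.03 CPM in DMSO. The MTZ libraries of rb1 lay above its DMSO libraries without overlap, which holds for 5.58% of genes tested (edgeR unadjusted p = 0.134, adjusted p = 0.9997). The lower genes of smallest p were the p53 target ccng1, with 218 ± 60.04 CPM in MTZ and 279 ± 29.2 CPM in DMSO, tob1a, with 12.1 ± 18.5 CPM in MTZ and 44.2 ± 18.8 CPM in DMSO, and the Cdk phosphatase gene cdkn3, with 22.2 ± 20.5 CPM in MTZ and 51.9 ± 61.6 CPM in DMSO.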
